A study of Mus musculus with 6 samples.

Results

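Fatty acid and triglyceride synthesis genes were described in the livers of Ugcg-deficient and wildtype mice. The set was a list of 36 gene symbols covering the lipogenic regulators, the enzymes from cytosolic acetyl-CoA to stored triglyceride, and proteins that control droplet lipolysis. Of these, 33 had a probe set among the 16331 gene probe sets of the array, and 3 (Acaca, Acacb and Agpat2) were not analysed here. The samples were 6 liver RNAs, labelled with biotin as cRNA and read on Affymetrix arrays. The KO group held 3 arrays labelled Ugcg-deficient (KO 427, 429 and 431), and the WT group held 3 arrays labelled wildtype (WT 426, 428 and 430). Ugcg encodes UDP-glucose ceramide glucosyltransferase, which makes glucosylceramide, the first glycosphingolipid of the pathway. The labels give no strain, age, sex or feeding state, and do not say in which cells Ugcg was removed. Nothing in the labels says that the arrays came from separate animals, so every p-value reflects spread that could be technical.

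The liver builds fatty acids from citrate-derived acetyl-CoA, lengthens and desaturates them, and joins them to glycerol phosphate as triglyceride. Insulin drives much of this programme through the transcription factor SREBP-1c, and carbohydrate drives it through ChREBP. Feeding raises this programme in liver, and fasting lowers it.

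All values are log2 expression values, and all differences are KO minus WT on that scale, tested with limma over all 16331 gene probe sets. Array medians lay between 6.79 and 6.81. The labelled tissue carried its markers: albumin (Alb) read 14.60 to 14.69 in KO and 14.64 to 14.69 in WT arrays. Ugcg itself read 7.12, 6.70 and 6.68 in KO 427, 429 and 431, against 6.81, 6.85 and 6.87 in WT 426, 428 and 430, and differed by -0.0088 (SE 0.117, limma adjusted p = 0.998). Where its probes lie relative to the deleted exons is not stated, so Ugcg checks no label here. On the first principal component KO 427 (-11.9) and WT 430 (-14.5) stood apart from the other 4 arrays (3.69 to 9.44). Markers of other tissues were high on 1 array each: the mean of 6 measured muscle markers was 7.00 in KO 427 and at most 6.34 elsewhere, that of 6 adipocyte markers was 7.01 in KO 431 and at most 6.47 elsewhere, and that of 7 pancreatic markers was 9.40 in WT 430 and at most 6.40 elsewhere. Among liver cell types, the mean of 4 cholangiocyte markers was 6.92 in KO 429 and at most 6.54 elsewhere. That of 6 Kupffer cell markers was 8.07 in KO 431 and at least 8.36 elsewhere. The means of the hepatocyte, stellate cell and endothelial markers ran from 13.46 to 13.58, 8.25 to 8.55 and 8.64 to 8.81. In whole liver RNA, fewer cells of a type and less RNA per cell cannot be told apart.

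No member passed an adjusted p of 0.05 in the limma fit with all arrays (lowest adjusted p = 0.951), where 4 of all 16331 probe sets, or 0.0245%, passed. At an unadjusted p under 0.05 there were 7 of 33 members, or 21.2%, against 4.99% of all probe sets. Of these, 5 had the higher mean in KO arrays (Elovl6, Fads2, Scd2, Elovl1 and Acsl3; 2.64% of all probe sets) and 2 the lower mean (Lpin1 and Lpin2; 2.35% of all probe sets). The 5 act on the fatty acid chain by elongation, desaturation or activation, and the 2 are phosphatidate phosphatases of glycerolipid assembly. The groups did not overlap for 5 members, or 15.2%, against 9.57% of all probe sets: Elovl6, Fads2, Scd2 and Agpat1 were higher in every KO array (5.1% of all probe sets) and Dgat2 was lower (4.47%). Over the 33 members 19 differences were above 0 and 14 below, a share of 57.6% above 0 against 52.6% of all probe sets. The median difference was 0.067, against 0.0059 over all probe sets. With 1 array left out the median ran from 0.0018 without WT 430 to 0.18 without WT 426. Without KO 427 and WT 430 together it was -0.011, with 15 differences above 0 and 18 below. The count at an unadjusted p under 0.05 was 4 (12.1%) without KO 429, KO 431 or WT 428, against 4.40%, 6.26% and 3.99% of all probe sets. It was 5 without WT 430 (15.2%, against 6.95%) and 7 without KO 427 (21.2%, against 4.97%). Without WT 426 it was 10 (30.3%, against 3.58%). Elovl6 was the 1 of the 7 members to stay at an unadjusted p under 0.05 without each array in turn.

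**Figure D1:**
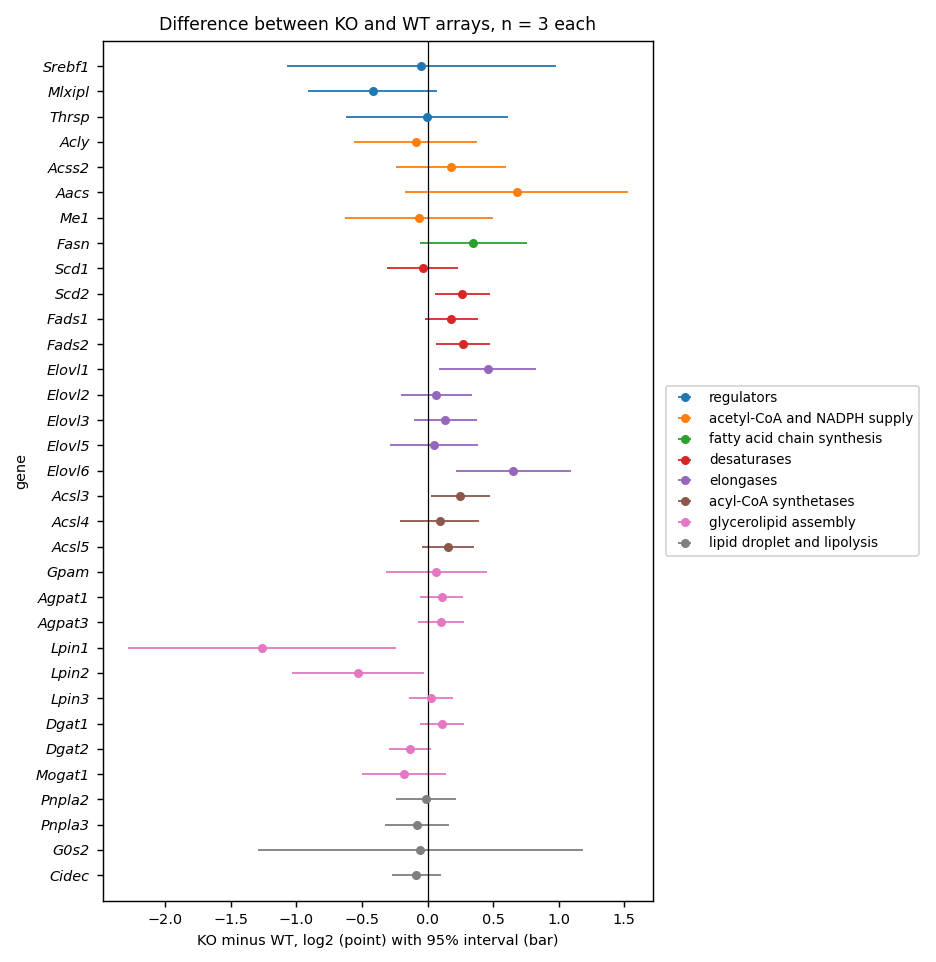
KO minus WT difference (x axis, log2 scale) of each of the 33 measured genes (y axis, coloured by role), with points for the limma estimate and bars for its 95% interval, n = 3 arrays per group. The intervals of Elovl6, Fads2, Scd2, Elovl1 and Acsl3 lie above 0, those of Lpin1 and Lpin2 lie below 0, and the widest is that of G0s2 (-1.29 to 1.18).

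The members varied more between arrays than most genes did. Their median range over the 6 arrays was 0.502, against 0.277 over all probe sets, and 8 of 33 members (24.2%) spanned more than 1 on the log2 scale, against 1.18% of all probe sets. The pooled within-group SD had a median of 0.214 for members and 0.103 for all probe sets. The SD was larger among WT than among KO arrays for 20 of the 33, and the share over all probe sets was not computed. WT 426 held the highest value of 11 members (33.3%, against 14.6% of all probe sets). WT 430 held the lowest value of 11 members (33.3%, against 18.3%) and WT 428 that of 8 (24.2%, against 14.6%). Relative to each gene's mean over the arrays, the median member lay at 0.054, -0.047 and 0.067 in KO 427, 429 and 431, and at 0.082, -0.12 and -0.089 in WT 426, 428 and 430. The KO and WT arrays overlapped on this measure, with WT 426 above every KO array.

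**Figure D2:**
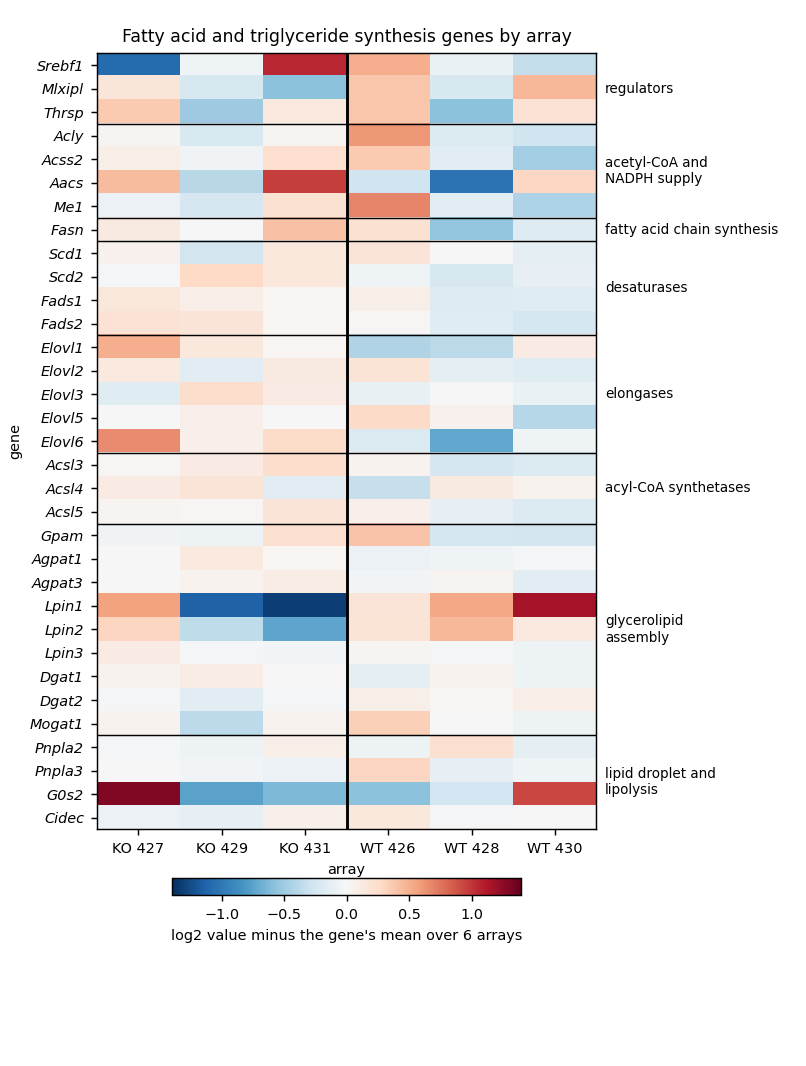
Log2 value of each measured gene (rows, grouped by role) on each array (columns, KO left of the line and WT right of it), as colour for the deviation from the gene's mean over 6 arrays. Srebf1, Lpin1 and G0s2 span more than 2.0, Lpin1 and G0s2 are both above their mean on KO 427 and WT 430, and WT 426 is above the mean for Acly, Acss2, Me1 and Gpam.

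Among the regulators, Srebf1, which encodes SREBP-1, the insulin-responsive activator of lipogenic genes, read 9.76, 10.78 and 11.90 in KO 427, 429 and 431, against 11.34, 10.74 and 10.50 in WT 426, 428 and 430. The KO arrays thus held both its lowest and its highest value, and the WT arrays lay between them. Its difference was -0.048 (SE 0.452, 95% interval -1.07 to 0.98), and it was 0.48 without KO 427 and -0.59 without KO 431. Mlxipl, which encodes the glucose-responsive factor ChREBP, read 10.21, 9.80 and 9.46 in the KO arrays, against 10.42, 9.80 and 10.50 in the WT arrays. Its difference of -0.42 (SE 0.216, limma adjusted p = 0.982) kept its sign without any 1 array, from -0.64 without WT 428 to -0.24 without KO 431. Thrsp, a lipogenesis-associated nuclear protein also known as Spot 14, differed by -0.0062, with 11.56 to 12.43 in KO and 11.49 to 12.46 in WT arrays. The order of the arrays was not shared by the 3 regulators: KO 431 was highest for Srebf1, whereas WT 430 was highest for Mlxipl and WT 426 for Thrsp.

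The genes that supply acetyl-CoA and NADPH showed no common direction. Acly, ATP citrate lyase, which splits citrate to cytosolic acetyl-CoA, read 11.20, 10.96 and 11.21 in the KO arrays, against 11.77, 10.98 and 10.89 in the WT arrays. Me1, the cytosolic malic enzyme that yields NADPH, read 10.83, 10.67 and 11.12 in the KO arrays, against 11.59, 10.75 and 10.48 in the WT arrays. Acss2, which activates acetate, read 11.77, 11.64 and 11.92 in the KO arrays, against 12.05, 11.53 and 11.22 in the WT arrays. For all 3 genes the highest value was WT 426 and the lowest WT 430, so that the KO arrays lay inside the WT range. Their differences were -0.090 for Acly, -0.064 for Me1 and 0.18 for Acss2. Aacs, acetoacetyl-CoA synthetase, which returns ketone bodies to lipid synthesis, had the largest positive difference of the members, 0.68 (SE 0.375, 95% interval -0.17 to 1.53, limma adjusted p = 0.982). It read 10.06, 9.23 and 10.58 in the KO arrays, against 9.34, 8.58 and 9.90 in the WT arrays, and the groups overlapped. Its difference was 0.34 without WT 428 and 1.04 without KO 429.

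Fasn, the fatty acid synthase that builds palmitate, was the measured member of chain synthesis. It read 11.80, 11.66 and 12.08 in KO 427, 429 and 431, against 11.88, 11.12 and 11.48 in WT 426, 428 and 430. WT 426 lay above KO 427 and KO 429, and the other 2 WT arrays lay below every KO array. The difference was 0.35, or 1.27-fold (SE 0.180, limma unadjusted p = 0.0843, adjusted p = 0.982). It was 0.54 without WT 426 and 0.16 without WT 428. KO 431, highest for Fasn, Srebf1, Aacs, Acsl3, Acsl5 and Agpat3, was also highest for the adipocyte markers. Without it the differences were 0.23 for Fasn, 0.37 for Aacs and 0.19 for Acsl3. Leaving out the highest KO array lowers a difference by construction, and the part of the adipocyte markers was not tested.

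The desaturases included 2 members without overlap. Fads2, the delta-6 desaturase that acts first on linoleic and alpha-linolenic acid, read 10.96, 10.93 and 10.78 in the KO arrays, against 10.77, 10.59 and 10.51 in the WT arrays. Its difference of 0.27 (SE 0.0900, 95% interval 0.065 to 0.47) had a limma unadjusted p of 0.0155 and an adjusted p of 0.951. The lowest KO array and the highest WT array were nearly equal, while the other arrays were well separated. Fads1, the delta-5 desaturase of the same route, read 11.90, 11.83 and 11.76 in the KO arrays, against 11.82, 11.56 and 11.57 in the WT arrays. Its difference was 0.18 (SE 0.0890, adjusted p = 0.982). WT 426 again lay among the KO values. Scd2, a stearoyl-CoA desaturase best known from brain and from young liver, read 6.66, 6.96 and 6.84 in the KO arrays, against 6.63, 6.46 and 6.58 in the WT arrays. Its difference was 0.26 (SE 0.0927, limma unadjusted p = 0.0194, adjusted p = 0.951). Scd1, the main stearoyl-CoA desaturase of adult liver, which makes oleic acid, showed no such separation: it read 13.32, 13.00 and 13.41 in the KO arrays, against 13.44, 13.25 and 13.14 in the WT arrays. Its difference was -0.036, with a 95% interval of -0.31 to 0.24.

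All 5 elongases among the members had a difference above 0, from 0.049 to 0.65. Elovl6, which elongates palmitate to stearate, had the lowest p of the members. It read 10.96, 10.37 and 10.55 in KO 427, 429 and 431, against 10.10, 9.57 and 10.25 in WT 426, 428 and 430. Every KO array lay above every WT array, and WT 428 was the lowest by a wide gap. The difference was 0.65, or 1.57-fold (SE 0.192, 95% interval 0.22 to 1.09, limma unadjusted p = 0.00803, adjusted p = 0.951). It ran from 0.45 without WT 428 to 0.79 without WT 430. Elovl1, which makes very long saturated chains, among them those used in sphingolipids, read 10.36, 10.00 and 9.87 in the KO arrays, against 9.43, 9.47 and 9.96 in the WT arrays. WT 430 lay among the KO values and the other WT arrays below them. The difference was 0.46, or 1.37-fold (SE 0.163, unadjusted p = 0.0208, adjusted p = 0.951). It was 0.32 without KO 427, which held the highest Elovl1 value, so that leaving it out lowers the difference by construction. KO 427 also had the highest muscle markers, and their part was not tested. The other 3 elongases overlapped between groups. Elovl3, which acts on saturated and monounsaturated chains, differed by 0.13, with 0.042 without KO 429 and 0.25 without KO 427. Elovl2 and Elovl5, which elongate polyunsaturated chains, differed by 0.067 and 0.049. The sign of both turned without WT 430, and that of Elovl5 also turned with array quality weights (-0.013).

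The 3 acyl-CoA synthetases among the members, which activate fatty acids for use, all had differences above 0. Acsl6, a further acyl-CoA synthetase outside the member list, differed by -0.023. Acsl3, which sits on the endoplasmic reticulum and on lipid droplets, read 7.43, 7.53 and 7.66 in the KO arrays, against 7.46, 7.18 and 7.22 in the WT arrays. WT 426 lay just above KO 427, and the difference was 0.25 (SE 0.0981, unadjusted p = 0.0310, adjusted p = 0.960). Acsl5, an isoform of liver and gut, differed by 0.16, with 12.09 to 12.25 in KO and 11.88 to 12.14 in WT arrays. Acsl4, which prefers arachidonic acid, differed by 0.091 and by -0.045 without WT 426.

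**Figure D3:**
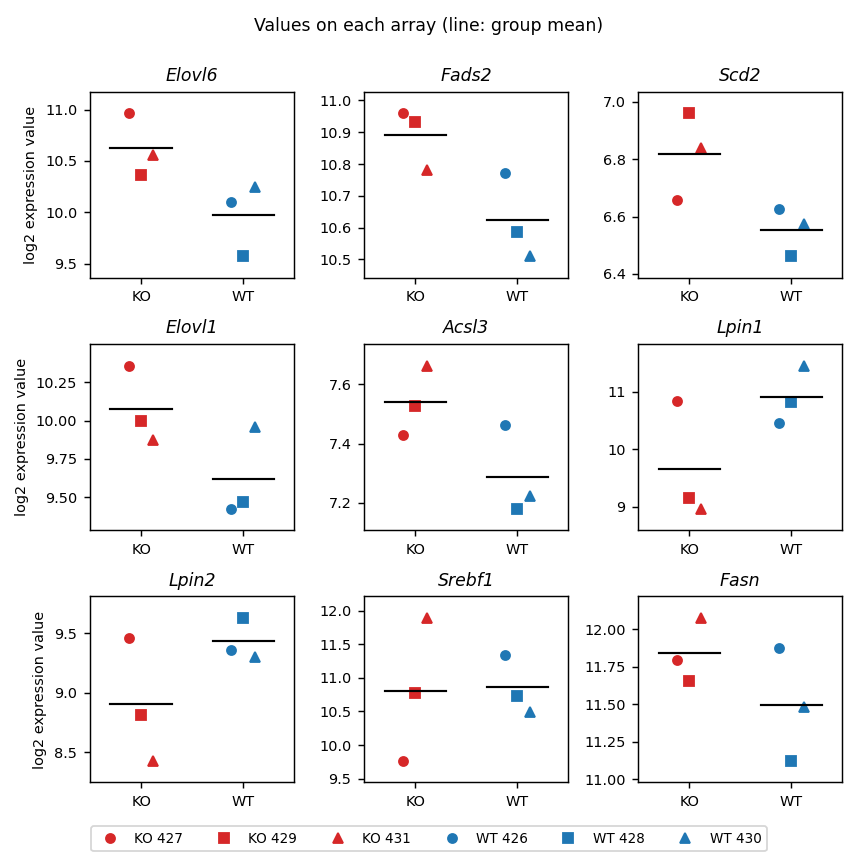
Log2 expression value (y axis, a separate range in each panel) of 9 genes on each array, KO left and WT right, with a marker for each array and a line at the group mean. Elovl6, Fads2 and Scd2 do not overlap between groups, KO 427 lies among the WT values for Lpin1 and Lpin2, and the KO arrays span the whole range for Srebf1.

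Glycerolipid assembly held the lipins, which convert phosphatidate to diacylglycerol, the direct precursor of triglyceride. Lpin1, the lipin that fasting and glucocorticoids induce in liver, had the largest difference of either sign. It read 10.85, 9.15 and 8.97 in KO 427, 429 and 431, against 10.47, 10.83 and 11.46 in WT 426, 428 and 430. KO 429 and KO 431 lay far below every WT array, and KO 427 lay among them. The difference was -1.26, that is 0.417 times the WT level (SE 0.451, 95% interval -2.28 to -0.24, limma unadjusted p = 0.0211, adjusted p = 0.951). Lpin2, a lipin prominent in normal liver, had the same order of groups. It read 9.46, 8.82 and 8.43 in the KO arrays, against 9.36, 9.63 and 9.30 in the WT arrays, and differed by -0.53 (SE 0.223, unadjusted p = 0.0423, adjusted p = 0.982). The highest Lpin1 value was on WT 430 and the lowest on KO 431. KO 427 had the highest muscle markers (7.00), KO 431 the highest adipocyte markers (7.01) and WT 430 the highest pancreatic markers (9.40). The part of these markers in the result was not tested. Without KO 427, Lpin1 differed by -1.86 (unadjusted p = 6.97e-05, adjusted p = 0.129) and Lpin2 by -0.81 (adjusted p = 0.318). Without KO 431 the differences were smaller, -0.92 for Lpin1 (unadjusted p = 0.0834) and -0.29 for Lpin2 (unadjusted p = 0.156). The unadjusted p of Lpin1 was also above 0.05 without KO 429 (0.0812) or WT 430 (0.0656), and that of Lpin2 without KO 429 (0.106), WT 426 (0.0670) or WT 428 (0.129). KO 427 and WT 430, which stood apart on the first principal component, were also left out together. KO 429 and 431 were then compared with WT 426 and 428. In that fit Lpin1 differed by -1.59 and was the 1 member to pass (limma adjusted p = 0.0141), where 8 of all 16331 probe sets passed. Lpin2 differed by -0.87 (adjusted p = 0.200). This choice of arrays was made with earlier results of these data known. Across the alternatives tried, the adjusted p of Lpin1 ran from 0.0141 to 0.9997. With an intensity trend and robust variance its unadjusted p was 0.116 and that of Lpin2 was 0.0721. Lpin3 differed by 0.028, with a 95% interval of -0.14 to 0.20, and read 6.47 to 6.64 over all arrays.

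**Figure D4:**
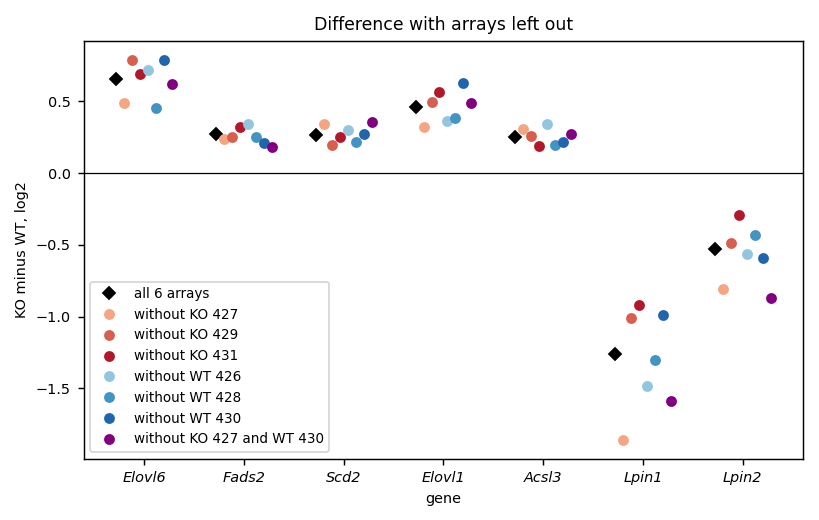
KO minus WT difference (y axis, log2 scale) of the 7 genes with an unadjusted p under 0.05 (x axis), with all 6 arrays (black diamond), without each array in turn, and without KO 427 and WT 430 together. Each of the 7 keeps its sign, and Lpin1 ranges from -1.86 without KO 427 to -0.92 without KO 431. The 7 were picked by their p on these same arrays, so a kept sign is no separate support.

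The enzymes before and after the lipins differed little. Gpam, the mitochondrial acyltransferase that starts glycerolipid synthesis, read 9.16, 9.13 and 9.42 in the KO arrays, against 9.60, 8.96 and 8.95 in the WT arrays, a difference of 0.068. WT 426 was the highest array, as for Acly and Me1, and the other WT arrays were the lowest. Agpat1, which adds the next acyl chain, read 6.75, 6.90 and 6.79 in the KO arrays, against 6.67, 6.70 and 6.74 in the WT arrays. The groups did not overlap, but the difference was 0.11 (unadjusted p = 0.169). Agpat3, of the same family, differed by 0.10. Dgat2, the diacylglycerol acyltransferase linked to newly made fatty acids, was the 1 member lower on every KO array: it read 10.88, 10.75 and 10.89 in the KO arrays, against 10.99, 10.93 and 11.00 in the WT arrays. Its difference was -0.13 (SE 0.0714, 95% interval -0.29 to 0.030, adjusted p = 0.982). Dgat1, which catalyses the same step and is unrelated to Dgat2 in sequence, differed by 0.11, with 8.55 to 8.64 in KO and 8.40 to 8.58 in WT arrays. Mogat1, which acylates monoacylglycerol, differed by -0.18, and by -0.039 without KO 429.

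The 4 lipid droplet and lipolysis genes among the members had differences below 0, from -0.087 to -0.014, and all overlapped. Of 13 other lipid droplet genes 7 were above 0 and 6 below. G0s2, the inhibitor of adipose triglyceride lipase, read 11.08, 9.03 and 9.16 in the KO arrays, against 9.21, 9.51 and 10.71 in the WT arrays. It was high on KO 427 and WT 430, the arrays that stood apart on the first principal component, and lower on the other 4 arrays. Its difference was -0.054 (SE 0.546), with -0.72 without KO 427 and 0.40 without WT 430. Pnpla2, which encodes adipose triglyceride lipase, read 8.30 to 8.45 in KO and 8.25 to 8.60 in WT arrays, a difference of -0.014. Pnpla3, a close relative of it, read 6.43 to 6.51 in KO and 6.40 to 6.81 in WT arrays, a difference of -0.080 that was 0.047 without WT 426. Cidec, which enlarges lipid droplets and is abundant in fat, read 6.13 to 6.31 in KO and 6.23 to 6.40 in WT arrays. It differed by -0.087, and its highest value was on WT 426. KO 431, the array with the highest adipocyte markers, was the highest KO array for Cidec, and the part of these markers was not tested.

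Of 61 other genes of lipid synthesis and storage, listed with earlier results of these data known, 52 had a probe set and none passed in the limma fit (lowest adjusted p = 0.478). Of these, 3 higher and 1 lower had an unadjusted p under 0.05, or 7.69% against 4.99% of all probe sets, and the median difference was 0.029. The groups did not overlap for 7 of the 52 (13.5%, against 9.57% of all probe sets), 5 of them higher and 2 lower in KO. Mgll, the monoacylglycerol lipase that ends lipolysis, read 10.08, 10.36 and 10.37 in the KO arrays, against 9.70, 9.80 and 9.85 in the WT arrays. It differed by 0.49 (SE 0.0956, limma adjusted p = 0.478). Gpat3, an acyltransferase that starts glycerolipid synthesis in the endoplasmic reticulum, read 6.79, 7.04 and 7.02 in the KO arrays, against 6.66, 6.50 and 6.36 in the WT arrays, a difference of 0.44 (SE 0.101, adjusted p = 0.670). For both genes every KO array lay above every WT array. Mlycd, the decarboxylase that degrades malonyl-CoA, differed by 0.24 (adjusted p = 0.951) without overlap. Pklr, the liver pyruvate kinase and a ChREBP target, differed by -0.33 (adjusted p = 0.952). All 7 genes of the elongation cycle beside the listed elongases had differences above 0, with a median of 0.041, and Hacd3, a dehydratase of that cycle, differed by 0.17 (adjusted p = 0.982). All 6 other acyltransferases of glycerolipid assembly were above 0 as well, with a median of 0.13. Of 9 other regulators 3 were above 0 and 6 below. The LXR-alpha gene Nr1h3, which activates Srebf1, had the smallest p of these and differed by 0.22 (adjusted p = 0.982). In acyl-CoA synthesis and transport 3 of 7 were above 0, and the fatty acid transporter gene Slc27a4 differed by -0.046.

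The promoter windows of the members with an unadjusted p under 0.05 that the RefSeq table holds are shown, because the results above turn on these genes. The groups overlapped for 4 of these 6 genes (Elovl1, Acsl3, Lpin1 and Lpin2), and none passed the adjusted test with all arrays. Each is the 250 bases before the most upstream listed start in GRCm38.p6, written 5′ to 3′ on the strand of the gene. Capitals mark the letters of 4 motifs on either strand: the SREBP site TCACNCCAC, the E-box CACGTG, the CCAAT box CCAAT that NF-Y binds, and the GC box GGGCGG that Sp1 binds.
Elovl6 (chr3:129532136-129532385, plus strand): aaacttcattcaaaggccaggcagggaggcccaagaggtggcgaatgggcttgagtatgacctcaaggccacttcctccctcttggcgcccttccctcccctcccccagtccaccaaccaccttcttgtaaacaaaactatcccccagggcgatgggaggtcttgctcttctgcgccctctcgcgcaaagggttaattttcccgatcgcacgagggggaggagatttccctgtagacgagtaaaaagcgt
Fads2 (chr19:10101504-10101753, minus strand): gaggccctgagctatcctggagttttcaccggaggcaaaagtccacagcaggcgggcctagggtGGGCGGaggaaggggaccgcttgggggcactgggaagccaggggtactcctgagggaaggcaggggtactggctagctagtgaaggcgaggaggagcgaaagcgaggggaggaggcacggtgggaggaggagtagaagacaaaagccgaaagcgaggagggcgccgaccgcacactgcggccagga
Elovl1 (chr4:118427843-118428092, plus strand): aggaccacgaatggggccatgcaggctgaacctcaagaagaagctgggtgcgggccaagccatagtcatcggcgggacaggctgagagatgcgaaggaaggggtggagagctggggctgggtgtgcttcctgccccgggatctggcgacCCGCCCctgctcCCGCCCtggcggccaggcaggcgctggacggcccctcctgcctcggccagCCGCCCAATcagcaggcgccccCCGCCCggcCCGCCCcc
Acsl3 (chr1:78657575-78657824, plus strand): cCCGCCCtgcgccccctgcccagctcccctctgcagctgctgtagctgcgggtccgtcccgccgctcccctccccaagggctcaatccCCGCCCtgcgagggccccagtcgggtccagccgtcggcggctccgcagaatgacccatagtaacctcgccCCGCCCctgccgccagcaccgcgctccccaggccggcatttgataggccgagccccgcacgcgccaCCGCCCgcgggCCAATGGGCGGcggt
Lpin1 (chr12:16610967-16611216, minus strand): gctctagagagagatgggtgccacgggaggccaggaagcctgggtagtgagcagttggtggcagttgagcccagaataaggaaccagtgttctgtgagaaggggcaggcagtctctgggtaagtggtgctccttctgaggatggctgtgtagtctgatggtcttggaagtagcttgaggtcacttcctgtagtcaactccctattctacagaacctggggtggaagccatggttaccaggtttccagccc
Lpin2 (chr17:71183282-71183531, plus strand): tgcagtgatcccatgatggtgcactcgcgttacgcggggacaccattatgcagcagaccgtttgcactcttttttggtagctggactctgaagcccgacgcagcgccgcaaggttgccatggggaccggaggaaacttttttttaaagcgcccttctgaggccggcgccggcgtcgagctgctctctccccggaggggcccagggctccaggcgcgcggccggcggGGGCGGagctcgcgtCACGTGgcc
The windows of Elovl6 and Lpin1 held none of the 4 motifs. Those of Elovl1 and Acsl3 held a CCAAT box and 5 GC boxes each, and in Elovl1 the CCAAT box shares bases with a GC box. That of Fads2 held 1 GC box, and that of Lpin2 an E-box and a GC box. The Lpin1 and Elovl1 windows lie 42937 and 1219 bases inside the outermost start of their gene, and other starts were not searched. Over the 39 windows of the 27 measured members that matched, 1 (2.56%) held the SREBP site, 3 (7.69%) the E-box, 15 (38.5%) the CCAAT box and 21 (53.8%) the GC box. Over all 32851 windows of the table the shares were 1.05%, 6.02%, 33.8% and 32.7%. The SREBP site was in a Mlxipl window, and the E-boxes were in windows of Mlxipl, Elovl5 and Lpin2. A match is a description of letters and not of binding, and several windows can belong to the same gene.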

How the data were processed

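The deposited table held log2 expression values, a unit read from their range of 5.38 to 14.69. Which array, normalization and software the authors used is not stated; per the labels' protocols the samples were biotinylated cRNA for Affymetrix arrays. Of 16395 probe sets, 64 AFFX controls were left out. The other 16331 are named by Entrez number, and 15644 carried 1 symbol. Groups came from the sample titles. KO was compared with WT by limma (version 3.58.1, R 4.3.3; 4 residual degrees of freedom and a prior of 4.85), with two-sided p-values adjusted after Benjamini-Hochberg over 16331 probe sets. The members and all lists were chosen with earlier results of these data known, so no list was tested. Array values are given for all members at an unadjusted p under 0.05 or without overlap, and for some others picked by no fixed rule. Other pathway genes were named by the smallest p of their list or by an unadjusted p under 0.05. No detection calls were used, and levels were not compared between genes. Alternatives were quantile normalization, median centring, removal of dim probe sets (mean not above percentile 40), array quality weights, a robust variance with an intensity trend, adjustment over named probe sets and arrays left out. On simulated data with 16331 probe sets, 200 of them changed in each of 12 draws, limma recovered 58.2% of changes of 0.5, 94.4% of changes of 1 and 99.0% of changes of 2. These rates depend on the number of changed probe sets and do not carry over to the real arrays.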

Additional observations from a re-analysis of the deposited data

How the results depend on the processing

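No member passed under any alternative with all arrays or with 1 array left out, nor with adjustment over named probe sets; without KO 427 and WT 430 together 1 passed, Lpin1 (-1.59). The count at an unadjusted p under 0.05 was 5 to 7 with all arrays and 4 to 10 with 1 array left out. The share of all tested probe sets was 4.91% to 5.61% with all arrays and 3.58% to 6.95% with 1 array left out. The median difference ran from 0.0018 without WT 430 to 0.18 without WT 426 with 1 array left out, and was -0.011 without KO 427 and WT 430 together. No sign turned with quantile normalization or median centring, though median centring moves all differences by the same small amount. With array quality weights Elovl5 turned to -0.013. The intensity trend and the removal of dim probe sets, which dropped Cidec, leave each difference as it was. They therefore cannot turn a sign. With 1 array left out, 19 of 33 members kept their sign and 14 turned, and the share over all probe sets was not computed. Of the 19, the difference of 12 moved by over 1.5 times without some array. The 19 include the 7 at an unadjusted p under 0.05. These were picked on the same arrays, so their kept sign is no separate support. Those that turned ranged from -0.59 to 0.48 (Srebf1), -0.30 to 0.25 (Thrsp), -0.25 to 0.19 (Acly), -0.015 to 0.40 (Acss2), -0.29 to 0.26 (Me1), -0.12 to 0.084 (Scd1), -0.00049 to 0.18 (Elovl2), -0.14 to 0.19 (Elovl5), -0.045 to 0.20 (Acsl4), -0.041 to 0.28 (Gpam), -0.020 to 0.055 (Lpin3), -0.081 to 0.094 (Pnpla2), -0.16 to 0.047 (Pnpla3) and -0.72 to 0.40 (G0s2). Without KO 427 and WT 430 together, Srebf1 (0.30), Acss2 (-0.011), Elovl2 (-0.049), Elovl5 (-0.12), Gpam (-0.0020) and Lpin3 (-0.046) turned sign. The cause was not tested. The numbers in the sample titles run consecutively and alternate between WT and KO, so neighbouring arrays could be pairs. No number is shared by both groups and no label ties a KO array to a WT array, so no paired analysis was made. For Aacs each KO array lay above the WT array numbered just before it, and for Thrsp the order differed between such neighbours. Whether pairing would narrow the intervals was not tested. The number of arrays limits the precision: the median SE was 0.133 for members and 0.0847 for all probe sets.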
